A study of Mus musculus with 17 samples.

Results

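The 9 genes described here encode the core of the mouse Myc, Max and Mxd transcription factor network. They are Myc, Max, Mnt, Mxd1, Mxd3, Mxd4, Mxi1, Mlx and Mga, chosen by name and matched to Ensembl identifiers, and all 9 were found among the 53679 genes counted and kept for testing. Their RNA was measured in 17 libraries of CD8+ T cells of the C57BL/6 strain, prepared from cells reported as more than 99% CD8+. The cells were Cblb knockout (KO) or Cblb wild type (WT), the gene for Cbl-b, a ubiquitin ligase that limits activation of T cells. Within each genotype, cells were left unstimulated, were given anti-CD3 to trigger the antigen receptor, or were given anti-CD3 plus anti-CD28, called both antibodies below, which adds the costimulatory signal. The label of every stimulated library gives 12 h of stimulation. Each group had 3 libraries, except WT cells given both antibodies, for which replicates 2 and 3 were available and replicate 1 was not analysed here. No label says that replicates came from separate animals or cultures, so p-values measure the spread between these libraries, which may be technical, and no label describes the knockout allele.

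Myc is a basic helix-loop-helix leucine zipper protein that binds DNA as a heterodimer with Max, mostly at E-box sequences, and activates genes of growth, ribosome production and metabolism. The Mxd proteins (Mxd1, Mxd3, Mxd4 and Mxi1) and Mnt also bind E-boxes as dimers with Max, but recruit Sin3 corepressors and so oppose Myc. Mlx is a Max-like protein that pairs with MondoA and ChREBP and with some Mxd proteins, and Mga is a large Max partner found in the repressive complex PRC1.6. In T cells, Myc is known to be induced through the antigen receptor and to drive the metabolic reprogramming that precedes division.

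The E-box to which these dimers bind is CACGTG, which reads the same on both strands. It was searched in RefSeq promoters of GRCm38.p6, each running from 250 bases before to 50 bases after a start, and 8 of the 9 genes (all except Myc) matched, with 10 promoters. It was present in 4 of these 10 (40%), against 2349 of 32851 promoters of all genes (7.15%). Of the 10, 3 belonged to Mxi1, and 2 of those overlap. The 4 sites are shown 5′ to 3′ on the strand of the gene with 20 bases on each side and the E-box in capitals, because they place the motif that the network's own proteins bind next to members of the network.
Mxd4: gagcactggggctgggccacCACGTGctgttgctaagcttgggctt
Mnt: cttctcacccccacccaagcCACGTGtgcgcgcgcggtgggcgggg
Mlx: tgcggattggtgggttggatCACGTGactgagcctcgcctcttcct
Max: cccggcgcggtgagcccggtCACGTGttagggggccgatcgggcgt
The Mxd4 stretch is chr5:34187904-34187949 on the minus strand, with the E-box starting at position -219 relative to the RefSeq start of that promoter. The gene positions given below come from another annotation, GENCODE, in which starts can differ. The Mnt stretch is chr11:74830781-74830826 on the plus strand, with the E-box at -123. The Mlx stretch is chr11:101087230-101087275 on the plus strand, with the E-box at -40. The Max stretch is chr12:76962226-76962271 on the minus strand, where the E-box begins at -3 and so spans the RefSeq start. In GENCODE, this stretch lies upstream of the Max gene (chr12:76937269-76962201). The variant motif CACGCG, or CGCGTG on the other strand, was present in 1 of the 10 promoters, that of Mga, against 9.27% of all promoters. A match says that the letters are present and not that a protein binds there.

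The libraries held 16635826 to 38269033 counted reads each, apart from KO unstimulated replicate 2 with 160059285. Levels are in CPM, which sets all libraries to a common depth after TMM scaling. Differences are log2 fold changes ± SE from edgeR's quasi-likelihood test, with p adjusted over 16246 genes and a threshold of 0.05. Cblb itself was read at 63.9 to 95.9 CPM in KO libraries and 139.5 to 190.1 CPM in WT libraries, with no overlap. GC-rich and GC-poor genes were unequally represented among the libraries. This GC tilt, the median log2 deviation of expressed genes with 56% GC or more less the same median for genes with 40% GC or less, was 0.16 to 1.15 in KO unstimulated libraries, against -0.75 to -0.31 in WT unstimulated libraries. It was 0.10 to 0.24 in KO and -0.41 to -0.11 in WT libraries with anti-CD3, and -1.15 to 0.36 in KO and 0.52 to 0.57 in WT libraries with both antibodies. In all 3 states the genotypes did not overlap in tilt, so values corrected for GC content by a curve fitted in each library are given beside the results they move. Summed over 5 T cell markers, 1538 to 1697 CPM were found in stimulated and 2772 to 3091 CPM in unstimulated libraries. Summed B cell markers (5 genes) reached 5.16 to 9.93 CPM in stimulated and 17.1 to 27.2 CPM in unstimulated libraries, myeloid and dendritic cell markers (6 genes) 2.88 to 5.83 and 7.19 to 12.7 CPM, and NK cell markers (3 genes) 0.73 to 5.27 and 7.01 to 18.2 CPM. The 2 markers of CD4 and regulatory T cells summed to at most 2.18 CPM and the 3 erythroid markers to at most 3.47 CPM. Cd4, Cd14 and Ncr1 had a median of 0 CPM. These other-cell markers moved with stimulation, and their part in the stimulation results was not tested. In bulk RNA, fewer cells of a type and less RNA per cell cannot be told apart.

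Between KO and WT cells, 4 of the 9 genes changed without stimulation (25.4% of all genes tested did), 3 higher (15.3%) and 1 lower (10.1%) in KO. With anti-CD3, 2 changed (15.3%), both higher (10.5%) and 0 lower (4.80%), and with both antibodies 3 changed (16.1%), 1 higher (9.84%) and 2 lower (6.30%). Against unstimulated cells, anti-CD3 changed 5 of 9 in KO cells (36.9%), 3 higher (19.6%) and 2 lower (17.3%), and 4 in WT cells (24.4%), 1 higher (11.3%) and 3 lower (13.1%). Both antibodies changed 7 of 9 in KO cells (45.4%), 3 higher (23.0%) and 4 lower (22.5%), and 5 in WT cells (34.1%), 3 higher (17.8%) and 2 lower (16.3%). Counted in either direction, each share of the 9 was above that of all genes. By direction, 0 lower with anti-CD3 in KO against WT cells and 1 higher with anti-CD3 in WT cells were not, and over so few genes no property of the network is read from these shares. The directions differed between members: Myc was higher in each of these 7 comparisons, Mxd1 was lower in all 4 stimulation responses, and Mxi1 passed the threshold in none.

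**Figure D1:**
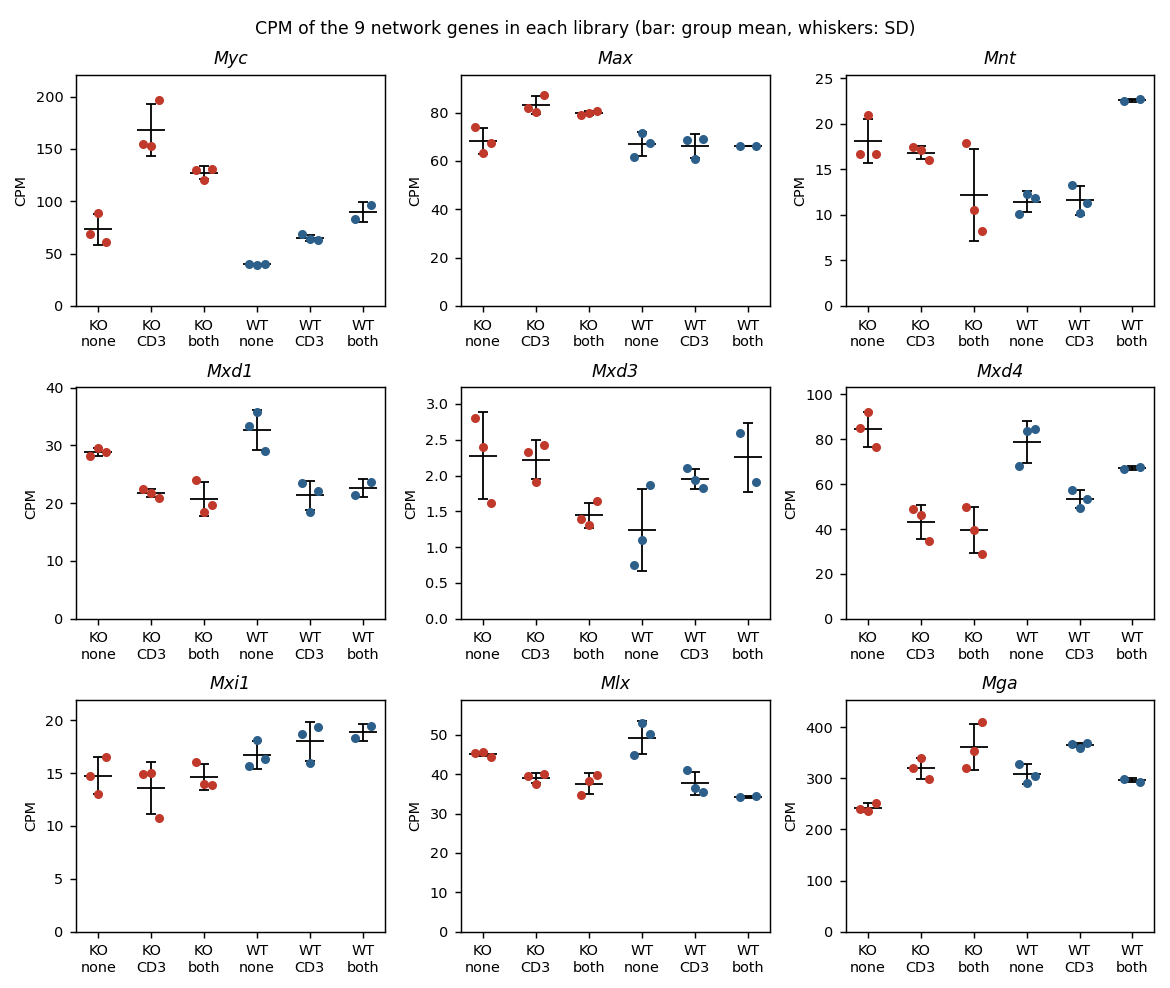
CPM of each network gene (vertical axis, from 0) in each library, with KO groups in red left of WT groups in blue; none, CD3 and both name the stimulation, points are libraries, the bar is the group mean and whiskers are the SD. All KO points of Myc lie above the WT points of the same stimulation, whereas the Mxi1 groups stay between 13.6 and 18.9 CPM on average.

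Myc (ENSMUSG00000022346, GRCm38 chr15:61985391-61990374, plus strand) encodes the activating member of the network. Without stimulation its level was 68.8, 89.2 and 61.2 CPM in the KO libraries and 39.9, 39.3 and 40.4 CPM in the WT libraries. With anti-CD3 it was 154, 153 and 197 CPM in KO and 68.5, 63.9 and 63.2 CPM in WT libraries. With both antibodies it was 130.2, 119.8 and 131 CPM in KO and 82.9 and 96.2 CPM in WT libraries. Every KO library was above every WT library of the same stimulation, and 2 of the 3 unstimulated KO libraries were also above all WT libraries given anti-CD3. Against WT, Myc was higher in KO cells by 0.88 ± 0.12 without stimulation (adjusted p = 0.0023), by 1.37 ± 0.12 with anti-CD3 (adjusted p = 8.9e-06) and by 0.51 ± 0.14 with both antibodies (adjusted p = 0.024). These are folds of 1.84, 2.58 and 1.42. With GC correction the difference was 0.57 without stimulation (adjusted p = 0.0058), 1.17 with anti-CD3 (adjusted p = 1.4e-06) and 0.70 with both antibodies (adjusted p = 0.00096). The call with both antibodies rested on few libraries: the adjusted p was 0.062 without KO replicate 3, 0.231 and 0.107 without WT replicate 2 or 3, and 0.232 when only those 2 groups were fitted.

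Myc rose with each stimulation in each genotype. Anti-CD3 raised it by 1.20 ± 0.12 in KO cells (adjusted p = 1.1e-06) and by 0.71 ± 0.12 in WT cells (adjusted p = 0.00043). Both antibodies raised it by 0.79 ± 0.12 in KO cells (adjusted p = 7.8e-05) and by 1.17 ± 0.14 in WT cells (adjusted p = 9e-06). With GC correction the rise with both antibodies was 1.06 in KO cells (adjusted p = 1.3e-07). It was 0.94 in WT cells (adjusted p = 4.5e-06), so the genotypes then stood in the opposite order. The GC-corrected rises with anti-CD3 were 1.28 in KO and 0.68 in WT cells. In KO cells the mean with both antibodies was 127 ± 6.30 CPM and with anti-CD3 alone 168 ± 24.8 CPM (SD, n = 3 each). In WT cells it was 89.5 ± 9.42 CPM with both (n = 2) and 65.2 ± 2.87 CPM with anti-CD3 alone (n = 3). The means thus stood in opposite order in the 2 genotypes, but neither step passed the threshold: the log2 difference of both antibodies against anti-CD3 was -0.40 ± 0.12 in KO cells (adjusted p = 0.547) and 0.46 ± 0.14 in WT cells (adjusted p = 0.147). The difference between these 2 steps was -0.86 ± 0.18, with an adjusted p of 0.061. With GC correction the steps were -0.21 in KO (adjusted p = 0.87) and 0.26 in WT cells (adjusted p = 0.37). The GC-corrected difference between them was -0.48 (adjusted p = 0.18).

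Levels per kilobase divide CPM by the union of all annotated exons of a gene, which can exceed the length of the transcripts expressed. Ranks between genes and the size of ratios depend on this choice. On this scale, Myc ranked 4 among the 9 genes in unstimulated WT cells and had the highest mean in the other 5 groups. In 2 of these 5 the next gene lay within the SD of Myc: Mlx in unstimulated KO cells (22.6 ± 0.296 CPM per kilobase), and Mga in WT cells given anti-CD3 (23.8 ± 0.283), where Mga was above Myc in replicate 3. Its level per kilobase was 26.9 ± 5.33 CPM in KO and 14.7 ± 0.194 CPM in WT unstimulated cells, and 61.9 ± 9.12 CPM in KO, against 24.0 ± 1.06 CPM in WT cells given anti-CD3. In unstimulated WT cells the order was Mlx (24.7 ± 2.07 CPM per kilobase), Mga (20.05 ± 1.27), Max (18.6 ± 1.38), Myc, Mxd4 (9.29 ± 1.09), Mxd1 (4.62 ± 0.485), Mnt (2.48 ± 0.251), Mxi1 (2.45 ± 0.190) and Mxd3 (0.523 ± 0.242). The neighbours Mnt and Mxi1 lay within an SD of each other, and the libraries of Mga (18.9 to 21.4) and Max (17.1 to 19.9) overlapped. In KO cells given anti-CD3, Max (23.1 ± 1.03 CPM per kilobase), Mga (20.9 ± 1.34) and Mlx (19.5 ± 0.690) came next after Myc and close to each other, and the repressor genes lay between 0.939 (Mxd3) and 5.11 (Mxd4).

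Max (ENSMUSG00000059436, chr12:76937269-76962201, minus strand) encodes the shared partner, with which both Myc and Mxd proteins bind E-boxes. Without stimulation its level was 74.2, 63.4 and 67.5 CPM in KO and 61.6, 71.5 and 67.4 CPM in WT libraries. With anti-CD3 the values were 81.9, 80.2 and 87.3 CPM in KO and 68.6, 60.6 and 69.2 CPM in WT libraries, and with both antibodies 78.9, 79.96 and 80.8 CPM in KO and 66.1 and 66.1 CPM in WT libraries. The genotypes overlapped without stimulation and did not overlap in either stimulated state, and in WT cells the group means ran from 66.1 to 66.8 CPM over the 3 states. Max was higher in KO than in WT cells with anti-CD3 by 0.33 ± 0.085 (adjusted p = 0.014), while with both antibodies the difference was 0.27 ± 0.096 (adjusted p = 0.060). With GC correction these differences were 0.25 (adjusted p = 0.018) and 0.24 (adjusted p = 0.049). In KO cells Max rose by 0.28 ± 0.085 with anti-CD3 (adjusted p = 0.014) and by 0.23 ± 0.085 with both antibodies (adjusted p = 0.038). With GC correction the rises were 0.26 (adjusted p = 0.0062) and 0.26 (adjusted p = 0.0078). The differences of Max were small, and the KO against WT call with anti-CD3 was lost without KO replicate 3 (adjusted p = 0.083) or WT replicate 2 (adjusted p = 0.087). The KO response to anti-CD3 was lost without KO anti-CD3 replicate 3 or KO unstimulated replicate 2 or 3 (adjusted p = 0.054 to 0.067), and that to both antibodies without any 1 of 7 libraries (KO and WT both-antibody replicates 2 and 3, KO unstimulated replicates 2 and 3 and WT unstimulated replicate 1, adjusted p = 0.052 to 0.159). Neither response passed with no filter (adjusted p = 0.055 with anti-CD3 and 0.162 with both antibodies), with only the groups compared (0.070 and 0.163) or without KO unstimulated replicate 2 and KO both-antibody replicate 3 together (0.079 and 0.258).

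**Figure D2:**
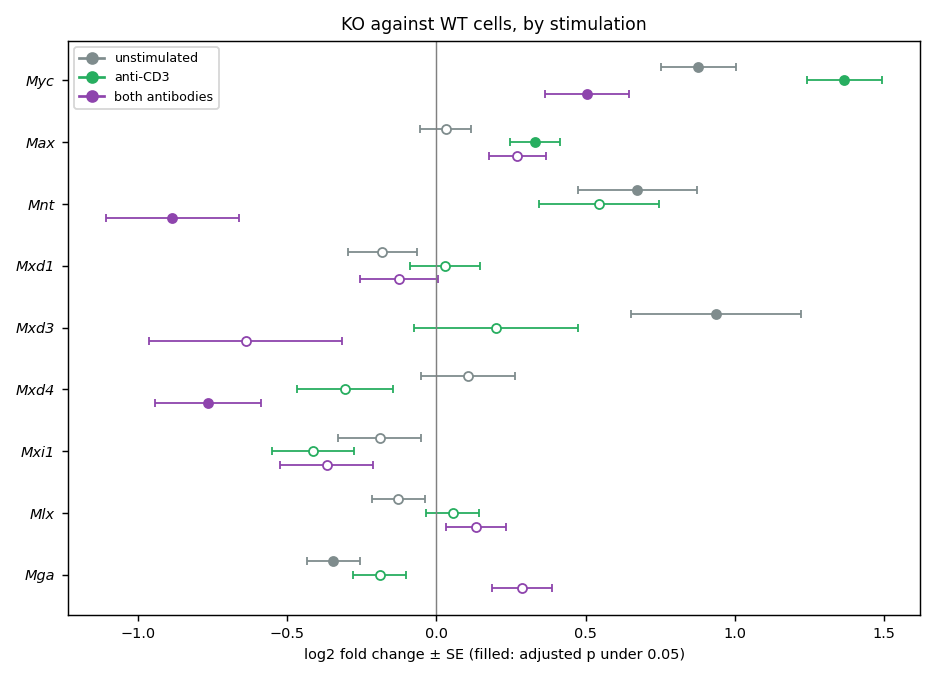
Log2 fold change ± SE of KO against WT cells (horizontal axis) for each network gene in the 3 states (no antibody, anti-CD3, both antibodies); filled points have an adjusted p under 0.05. Myc lies to the right of 0 in all 3 states (0.88, 1.37 and 0.51), and Mnt lies on opposite sides of 0 without stimulation (0.67) and with both antibodies (-0.88).

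Mnt (ENSMUSG00000000282, chr11:74830920-74845725, plus strand) encodes a Max partner that is expressed in proliferating and resting cells alike and opposes Myc. Its level was 16.7, 21.0 and 16.7 CPM in KO and 10.1, 12.4 and 11.9 CPM in WT unstimulated libraries. Given anti-CD3, it reached 17.4, 17.1 and 16.004 CPM in KO and 13.3, 10.2 and 11.3 CPM in WT libraries. With both antibodies it was 17.9, 10.5 and 8.26 CPM in KO and 22.5 and 22.7 CPM in WT libraries. KO libraries were thus above all WT libraries in the first 2 states and below both WT libraries in the third. Against WT, Mnt was higher in KO cells by 0.67 ± 0.20 without stimulation (adjusted p = 0.023) and lower with both antibodies (log2 fold change -0.88 ± 0.22, adjusted p = 0.017), and with anti-CD3 the value was 0.54 ± 0.20 (adjusted p = 0.075). In response to both antibodies Mnt fell by 0.58 ± 0.20 in KO cells (adjusted p = 0.027) and rose by 0.98 ± 0.22 in WT cells (adjusted p = 0.0029). The Mnt transcript has the highest GC content of the 9 (59.5%), and in all 3 states the genotypes stood in the same order in Mnt as in GC tilt. With GC correction the values were -0.11 without stimulation (adjusted p = 0.60), 0.083 with anti-CD3 (adjusted p = 0.64) and -0.30 with both antibodies (adjusted p = 0.087). Neither call between genotypes held. The GC-corrected responses to both antibodies were -0.00064 in KO (adjusted p = 0.998) and 0.19 in WT cells (adjusted p = 0.225). The KO response was lost without KO both-antibody replicate 2 or 3 or KO unstimulated replicate 2 (adjusted p = 0.112 to 0.129), without KO unstimulated replicate 2 and KO both-antibody replicate 3 together (adjusted p = 0.341) and with only the groups compared (adjusted p = 0.155). The both-antibody difference between genotypes was lost without KO replicate 2 or 3 or WT replicate 2 or 3 (adjusted p = 0.053 to 0.122) and when only those 2 groups were fitted (adjusted p = 0.24). The call without stimulation was also lost without KO replicate 2 (adjusted p = 0.135) or WT replicate 1 (adjusted p = 0.111).

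Mxd1 (ENSMUSG00000001156, chr6:86647042-86669161, minus strand), also known as Mad1, encodes a repressor linked to the exit from division and to differentiation. Its level was 28.1, 29.5 and 28.9 CPM in KO and 33.3, 35.8 and 29.0 CPM in WT unstimulated libraries. With anti-CD3 it was 22.4, 21.8 and 21.0 CPM in KO and 23.4, 18.5 and 22.1 CPM in WT libraries, and with both antibodies 24.1, 18.5 and 19.6 CPM in KO and 21.5 and 23.7 CPM in WT libraries. All stimulated libraries lay below all unstimulated ones, and the genotypes overlapped when stimulated. Mxd1 fell by 0.41 ± 0.12 with anti-CD3 (adjusted p = 0.010) and by 0.48 ± 0.12 with both antibodies (adjusted p = 0.0034) in KO cells. In WT cells it fell by 0.62 ± 0.12 with anti-CD3 (adjusted p = 0.00073) and by 0.54 ± 0.13 with both (adjusted p = 0.0055, or 0.075 without WT both-antibody replicate 2). GC correction kept all 4 calls, with log2 fold changes of -0.61 to -0.38.

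Mxd4 (ENSMUSG00000037235, chr5:34173883-34187720, minus strand), known as Mad4, encodes a further Max-binding repressor, and per kilobase it was the most abundant of the 5 repressor genes in all 6 groups. Without stimulation it was read at 85.0, 92.1 and 76.5 CPM in KO and 68.1, 83.6 and 84.6 CPM in WT libraries. Given anti-CD3, it reached 49.1, 46.2 and 34.8 CPM in KO and 57.6, 49.5 and 53.4 CPM in WT libraries. With both antibodies it was 49.99, 39.7 and 29.1 CPM in KO and 66.8 and 67.9 CPM in WT libraries. The genotypes overlapped without stimulation and separated, with KO lower, in both stimulated states. In KO cells Mxd4 fell by 0.97 ± 0.16 with anti-CD3 (adjusted p = 0.00015) and by 1.10 ± 0.16 with both antibodies (adjusted p = 4.8e-05). In WT cells it fell by 0.56 ± 0.16 with anti-CD3 (adjusted p = 0.016), and with both antibodies the value was -0.23 ± 0.18 (adjusted p = 0.35). Against WT cells, KO cells had less Mxd4 with both antibodies (-0.77 ± 0.18, adjusted p = 0.012), while with anti-CD3 the value was -0.31 ± 0.16 (adjusted p = 0.21). With GC correction the both-antibody difference was -0.78 (adjusted p = 0.0079). It did not pass when WT replicate 2 or 3 was left out (adjusted p = 0.097 and 0.110) or when only those 2 groups were fitted (adjusted p = 0.233). The WT fall with anti-CD3 did not pass without WT anti-CD3 replicate 2 (adjusted p = 0.071) or without WT unstimulated replicate 2 or 3 (adjusted p = 0.060 and 0.058).

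Mxd3 (ENSMUSG00000021485, chr13:55325168-55329823, minus strand) and Mxi1 (ENSMUSG00000025025, chr19:53310518-53375810, plus strand), also known as Mxd2, encode the remaining Max-binding repressors. Mxd3 was the lowest of the 9 per kilobase in every group, with 23 to 363 reads per library. Its level was 2.81, 2.40 and 1.62 CPM in KO and 0.75, 1.10 and 1.87 CPM in WT unstimulated libraries, which overlapped. It was 2.33, 1.91 and 2.43 CPM in KO and 2.11, 1.94 and 1.82 CPM in WT libraries with anti-CD3, and 1.39, 1.31 and 1.64 CPM in KO and 2.60 and 1.91 CPM in WT libraries with both antibodies. At this depth Mxd3 was called higher in KO than in WT unstimulated cells (0.94 ± 0.29, adjusted p = 0.026) and higher with both antibodies in WT cells (0.91 ± 0.32, adjusted p = 0.038). Leaving out 1 library ended the first call for 4 libraries (KO unstimulated replicates 1 and 2 and WT unstimulated replicates 1 and 2, adjusted p = 0.070 to 0.137) and the second for 4 (both WT both-antibody libraries and WT unstimulated replicates 1 and 2, adjusted p = 0.065 to 0.279). GC correction ended both calls (adjusted p = 0.46 and 0.32), as did a fit of only the groups compared (adjusted p = 0.081 and 0.072). The first was also lost without KO unstimulated replicate 2 and KO both-antibody replicate 3 together (adjusted p = 0.073), and the second with no filter (adjusted p = 0.055). Mxi1 averaged 14.8 ± 1.72, 13.6 ± 2.43 and 14.6 ± 1.23 CPM in KO cells without stimulation, with anti-CD3 and with both antibodies, and 16.7 ± 1.29, 18.0 ± 1.81 and 18.9 ± 0.819 CPM in WT cells. With anti-CD3, KO libraries (14.9, 15.02 and 10.8 CPM) lay below WT libraries (18.7, 15.9 and 19.4 CPM). KO against WT gave -0.41 ± 0.14 with anti-CD3 (adjusted p = 0.052) and -0.37 ± 0.15 with both antibodies (adjusted p = 0.106). With GC correction both passed, at -0.43 (adjusted p = 0.025) and -0.51 (adjusted p = 0.022).

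Mlx (ENSMUSG00000017801, chr11:101087277-101092207, plus strand) encodes the Max-like partner of MondoA. It was read at 45.3, 45.6 and 44.5 CPM in KO and 44.8, 53.0 and 50.2 CPM in WT unstimulated libraries. With anti-CD3 it was 39.6, 37.5 and 40.1 CPM in KO and 41.0, 36.5 and 35.5 CPM in WT libraries, and with both antibodies 34.8, 38.3 and 39.9 CPM in KO and 34.1 and 34.5 CPM in WT libraries. Stimulated libraries lay below unstimulated ones in each genotype. In WT cells Mlx fell by 0.39 ± 0.088 with anti-CD3 (adjusted p = 0.0034) and by 0.52 ± 0.10 with both antibodies (adjusted p = 0.00095), and in KO cells by 0.26 ± 0.089 with both antibodies (adjusted p = 0.023). The KO call did not hold with GC correction (-0.16, adjusted p = 0.113), with only the groups compared (adjusted p = 0.110), with no filter (adjusted p = 0.059), without KO both-antibody replicate 1 (adjusted p = 0.072) or without KO unstimulated replicate 2 (adjusted p = 0.058). Of the annotated Mlx exon bases, 385 (19.3%) also lie in exons of Psmc3ip on the other strand. Such overlaps covered 2.84% to 6.06% of the exon bases of Mxd3, Mxd4 and Mxi1, and the strand setting of the counting is not given in the sources used here.

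Mga (ENSMUSG00000033943, chr2:119897228-119969581, plus strand) encodes a scaffold with both a T-box and a helix-loop-helix domain. Its level was 239, 236 and 252 CPM in KO and 329, 290.4 and 303 CPM in WT unstimulated libraries. Given anti-CD3, it reached 320.5, 340.2 and 299 CPM in KO and 367, 359.9 and 368 CPM in WT libraries, and with both antibodies 319, 354 and 410.1 CPM in KO and 299 and 293 CPM in WT libraries. KO libraries were below all WT libraries in the first 2 states and above both in the third, the mirror image of Mnt. Mga was lower in KO than in WT unstimulated cells (-0.34 ± 0.090, adjusted p = 0.014), and in KO cells it rose by 0.40 ± 0.090 with anti-CD3 (adjusted p = 0.0019) and by 0.58 ± 0.090 with both antibodies (adjusted p = 7.8e-05). In WT cells the response was 0.25 ± 0.089 with anti-CD3 (adjusted p = 0.054) and -0.055 ± 0.10 with both antibodies (adjusted p = 0.70). The Mga transcript has the lowest GC content of the 9 (42.2%), and in all 3 states the genotypes stood in the opposite order in Mga and in GC tilt. With GC correction the KO against WT value was -0.058 (adjusted p = 0.65), and the KO responses were 0.18 (adjusted p = 0.033) and 0.22 (adjusted p = 0.0093). The GC-corrected WT responses were 0.24 with anti-CD3 (adjusted p = 0.0063), which passed, and 0.15 with both antibodies (adjusted p = 0.116). Without KO unstimulated replicate 2 or WT unstimulated replicate 1, the genotype call also failed (adjusted p = 0.075 and 0.074).

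**Figure D3:**
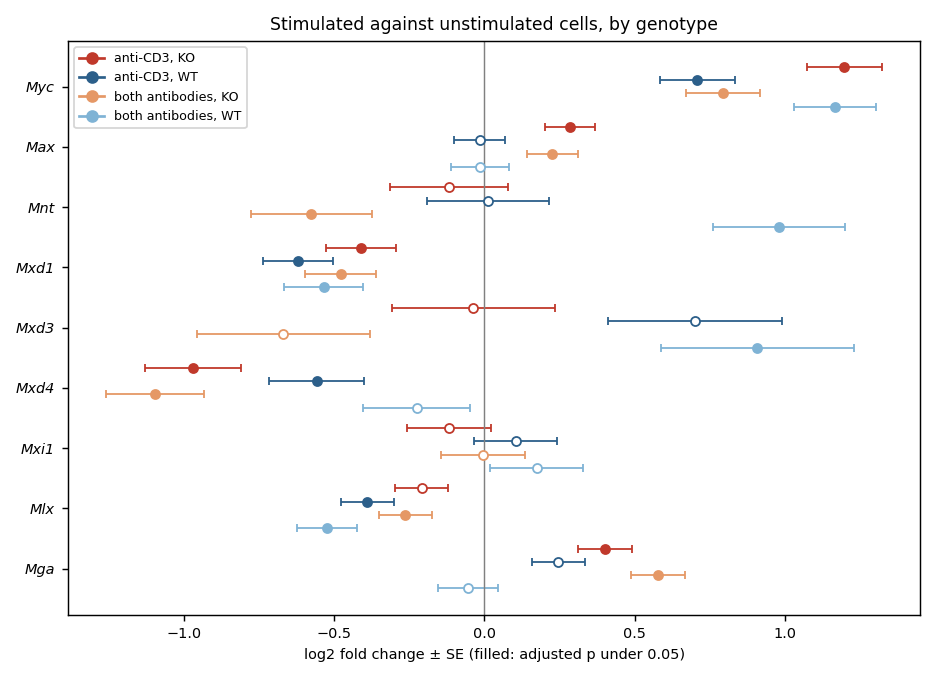
Log2 fold change ± SE of stimulated against unstimulated cells (horizontal axis) for each network gene, for anti-CD3 and both antibodies in KO and WT cells; filled points have an adjusted p under 0.05. Myc lies between 0.71 and 1.20 in all 4 responses and Mxd1 between -0.62 and -0.41, while Mnt lies at -0.58 in KO and 0.98 in WT cells given both antibodies.

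Per kilobase, the level of Myc relative to the sum of the 5 repressor genes (Mnt, Mxd1, Mxd3, Mxd4 and Mxi1) was 1.21, 1.46 and 1.14 in KO and 0.838, 0.699 and 0.750 in WT unstimulated libraries. With anti-CD3 it was 3.58, 3.70 and 5.52 in KO and 1.52, 1.70 and 1.51 in WT libraries. With both antibodies it was 2.98, 3.63 and 4.51 in KO and 1.56 and 1.78 in WT libraries. The ratio was above every WT value in every stimulated KO library, and unstimulated KO libraries lay between unstimulated and stimulated WT libraries. The summed repressors alone averaged 12.99 ± 2.79 CPM per kilobase in KO and 19.7 ± 0.260 in WT cells with both antibodies, 14.8 ± 1.44 in KO and 15.3 ± 1.41 in WT cells with anti-CD3, and 21.1 ± 1.34 in KO and 19.4 ± 1.63 in WT unstimulated cells. Relative to Max, Myc averaged 1.43 ± 0.373 in KO and 0.794 ± 0.0648 in WT unstimulated cells, 2.67 ± 0.272 in KO and 1.31 ± 0.0932 in WT cells with anti-CD3, and 2.11 ± 0.108 in KO and 1.79 ± 0.189 in WT cells with both antibodies. These ratios and sums of RNA levels are not corrected for GC content and are descriptions without a test. With GC correction the KO against WT difference with both antibodies was -0.30 for Mnt and -0.20 for Mxd3, against -0.88 and -0.64 without. For Mxd1, Mxd4 and Mxi1 it was -0.11, -0.78 and -0.51, against -0.12, -0.77 and -0.37 without.

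**Figure D4:**
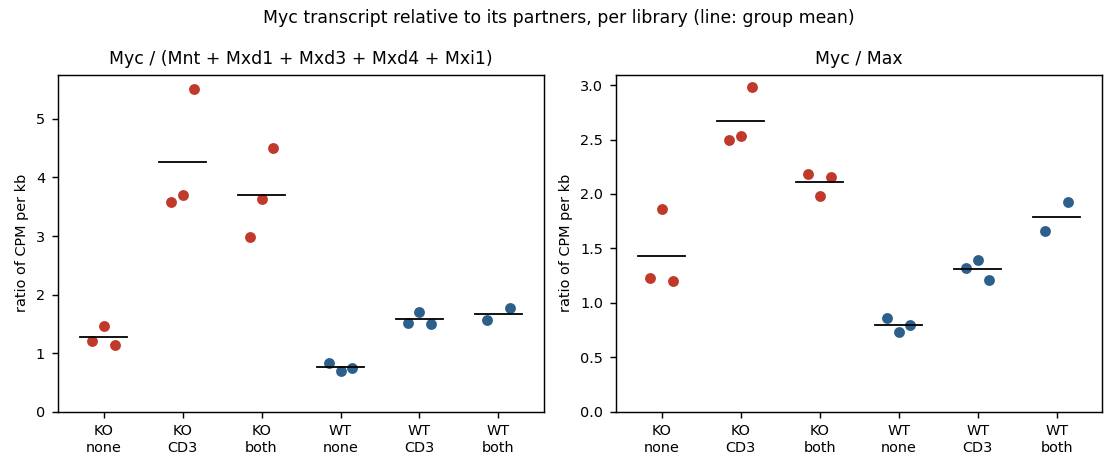
Ratio of CPM per kilobase in each library (points) with the group mean (line), KO in red left of WT in blue: Myc over the sum of 5 repressor genes on the left, Myc over Max on the right. Stimulated KO libraries lie at 2.98 to 5.52 on the left, and no WT library exceeds 1.78. The ratios are not corrected for GC content.

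Whether a response differed between genotypes was tested as KO response minus WT response. For anti-CD3, 0 of the 9 passed in edgeR (0.0554% of all genes), with 2 at an unadjusted p under 0.05, 0 in DESeq2 and 1 in limma voom. Myc had a difference of 0.49 ± 0.17 (adjusted p = 0.228), or 0.60 with GC correction (adjusted p = 0.043). For both antibodies, 4 of 9 passed (37.5% of all genes): Mnt (-1.56 ± 0.30, adjusted p = 0.0037), Mxd3 (-1.58 ± 0.43, adjusted p = 0.0099), Mxd4 (-0.87 ± 0.24, adjusted p = 0.010) and Mga (0.63 ± 0.13, adjusted p = 0.0042). With GC correction Mxd4 still passed (-0.82, adjusted p = 0.029) and Mlx passed as well (0.40, adjusted p = 0.028), while Mnt (-0.20, adjusted p = 0.47), Mxd3 (-0.58, adjusted p = 0.41) and Mga (0.068, adjusted p = 0.70) did not. Without WT both-antibody replicate 2, Mxd3 did not pass either (adjusted p = 0.060). Myc had a difference of -0.37 ± 0.18 (adjusted p = 0.122), or 0.12 with GC correction (adjusted p = 0.66).

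**Figure D5:**
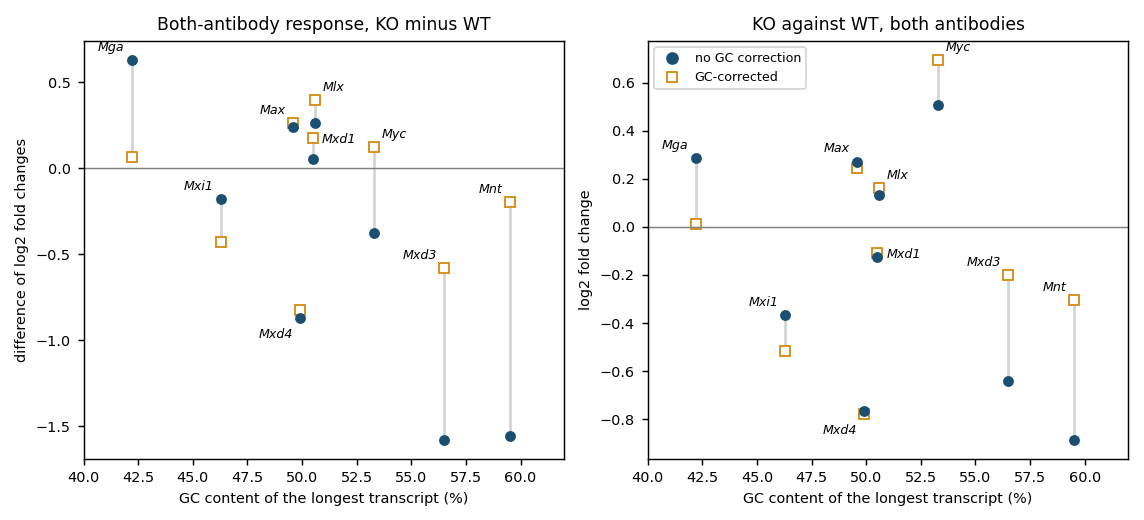
Difference of the both-antibody response between genotypes, KO minus WT (left), and log2 fold change of KO against WT with both antibodies (right), against the GC content of each gene's longest transcript in percent; filled circles are without and open squares with GC correction. The GC-richest gene Mnt moves to -0.20 and the GC-poorest gene Mga to 0.068 on the left, while Mxd4 stays at -0.82 with correction and -0.87 without.

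Adding anti-CD28 to anti-CD3 changed 0 of 9 in KO cells and 0 of 9 in WT cells in edgeR, and 0 of all genes (0% each). At an unadjusted p under 0.05 there were 3 in KO cells and 3 in WT cells. DESeq2 called 0 in KO and 1 in WT cells, and limma voom 6 in KO and 4 in WT cells. The genotype difference of this step was called for 0 of 9 in edgeR (0.00616% of all genes), with 3 at an unadjusted p under 0.05, 3 in DESeq2 and 6 in limma voom. Without GC correction the largest of these differences was that of Mnt (-1.43 ± 0.30, adjusted p = 0.061). With GC correction that of Mnt was -0.39 (adjusted p = 0.31), and the largest was that of Myc (-0.48, adjusted p = 0.18). How many network genes this step changes was therefore not settled by these libraries.

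Many known Myc target genes were higher in KO cells. The list holds 30 genes of ribosome production, translation, polyamine, nucleotide and amino acid metabolism and chaperones, all tested. Like the other gene lists below, it was chosen with earlier results of these data known. Its counts are therefore a description and not an independent test. Between KO and WT cells, 13 rose and 0 fell without stimulation, 27 rose and 0 fell with anti-CD3, and 23 rose and 0 fell with both antibodies. Of all genes, 15.3%, 10.5% and 9.84% were higher and 10.1%, 4.80% and 6.30% lower in these 3 comparisons. Their median log2 fold changes were 0.27, 0.84 and 0.70, beside medians of all genes of -0.01, 0.04 and 0.00. Mybbp1a, a nucleolar Myb-binding protein, rose by 0.98 ± 0.10 with anti-CD3 (adjusted p = 2.9e-05). Fbl, the methyltransferase of box C/D small nucleolar particles, rose by 0.96 ± 0.10 (adjusted p = 3.7e-05), and Slc7a5, a subunit of the large neutral amino acid transporter, by 1.08 ± 0.13 (adjusted p = 7e-05). With both antibodies Tfrc, the transferrin receptor, rose by 1.51 ± 0.25 (adjusted p = 0.0036) and Ccnd2, cyclin D2, by 0.91 ± 0.11 (adjusted p = 0.00077). Without stimulation Srm, the spermidine synthase, rose by 1.06 ± 0.17 (adjusted p = 0.0038). With GC correction 4 rose without stimulation, 29 with anti-CD3 and 30 with both antibodies, and 0 fell. The count without stimulation was 7 to 15 when 1 library was left out (7 without KO replicate 2 or WT replicate 1). The count with both antibodies was 1 to 23 (2 without WT replicate 2 and 1 without WT replicate 3), and 0 when only those 2 groups were fitted.

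Of these 30 targets, 15 to 29 rose in each of the 4 responses to stimulation. Of all genes, 19.6% in KO and 11.3% in WT cells were higher with anti-CD3, and 23.0% and 17.8% with both antibodies. The shares lower were 17.3% and 13.1% with anti-CD3, and 22.5% and 16.3% with both antibodies. With anti-CD3, 29 rose and 0 fell in KO cells (median 0.92, all genes 0.02) and 16 rose and 0 fell in WT cells (median 0.44, all genes 0.00). The WT count was 10 without WT anti-CD3 replicate 1 or 2, 9 without WT unstimulated replicate 1 and 25 with only the groups compared. With both antibodies, 23 rose and 0 fell in KO cells (median 0.73, all genes 0.01), and 15 rose and 1 fell in WT cells (median 0.36, all genes -0.01), the last being Ccnd2 (-0.39 ± 0.11, adjusted p = 0.012). Tfrc rose by 2.46 ± 0.22 with anti-CD3 in KO cells (adjusted p = 6.2e-07) and by 1.34 ± 0.21 in WT cells (adjusted p = 0.00027). Srm rose by 1.77 ± 0.17 in KO cells (adjusted p = 4e-07) and by 1.498 ± 0.17 in WT cells (adjusted p = 5.3e-06). The response to both antibodies differed between genotypes for 18 of the 30, of which 15 had the higher value in KO cells, among them Tfrc (1.81 ± 0.32, adjusted p = 0.0037), Hspe1, a mitochondrial chaperone (1.18 ± 0.23, adjusted p = 0.0037), and Eif4e, the cap-binding protein (1.35 ± 0.29, adjusted p = 0.0043). The 3 with the lower value were Bop1, a ribosome biogenesis factor (-0.97 ± 0.23, adjusted p = 0.0052), Ppan (-0.83 ± 0.24, adjusted p = 0.013) and Shmt2 (-0.82 ± 0.27, adjusted p = 0.027). In this test 18.3% of all genes had a called higher and 19.2% a called lower value. With GC correction 23 were higher and 0 lower. For anti-CD3 the response differed for 1 of the 30 (0.0554% of all genes), Ccnd2 (0.85 ± 0.14, adjusted p = 0.037). This count depended on the fit: it was 8 with GC correction, 3 in DESeq2, 17 in limma voom, 11 with only the groups compared, and 0 to 10 when 1 library was left out (10 without KO both-antibody replicate 1 or 3). CACGTG was present in 9 of the 28 RefSeq promoters of these targets (32.1%, with 24 of 30 genes matched), and CACGCG or CGCGTG in 14 (50%).

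Of 10 cofactors of Myc (subunits of acetyltransferase complexes, Ruvbl1 and Ruvbl2, Wdr5, Hcfc1 and Zbtb17), 5 rose and 0 fell in KO against WT cells without stimulation (median 0.30), 4 rose and 0 fell with anti-CD3 (median 0.30) and 3 rose and 0 fell with both antibodies (median -0.094). In the same comparisons 15.3%, 10.5% and 9.84% of all genes were higher and 10.1%, 4.80% and 6.30% lower. Ruvbl1, an AAA+ ATPase of chromatin complexes, rose with anti-CD3 by 0.70 ± 0.12 (adjusted p = 0.0013) and with both antibodies by 0.66 ± 0.14 (adjusted p = 0.0081). With GC correction 0 rose without stimulation, 3 with anti-CD3, and 5 rose and 1 fell with both antibodies. Leaving out 1 library gave 0 to 6 called cofactors without stimulation (0 without KO replicate 2, 1 without WT replicate 1, and 3 without any 1 of 11 others), 2 to 6 with anti-CD3 (2 without KO or WT replicate 3) and 0 to 6 with both antibodies (0 without either WT library, 6 without KO replicate 1). Against unstimulated cells, 19.6% of all genes rose in KO and 11.3% in WT cells with anti-CD3. With both antibodies 23.0% rose and 22.5% fell in KO cells, and 17.8% rose in WT cells. In response to anti-CD3, 4 cofactors rose in KO and 3 in WT cells. To both antibodies 3 cofactors rose and 1 fell in KO cells, near or below the shares of all genes, and 6 rose in WT cells. With GC correction 7 rose in KO and 5 in WT cells with anti-CD3, and 6 rose in KO, against 4 that rose and 1 that fell in WT cells, with both antibodies. Of 12 genes that control Myc protein turnover, 3 rose and 2 fell in KO against WT cells without stimulation, 2 rose and 1 fell with anti-CD3, and 1 rose and 1 fell with both antibodies. With GC correction 0 rose and 1 fell without stimulation, 2 rose and 1 fell with anti-CD3, and 2 rose and 2 fell with both antibodies. Leaving out 1 library gave 0 to 7 called turnover genes without stimulation (0 without KO replicate 2 or WT replicate 1) and 0 to 7 with both antibodies (0 without KO replicate 2 or 3 or either WT library, 7 without KO replicate 1). Usp28, a deubiquitinase that stabilises Myc, was lower in KO cells in all 3 states (-0.31 ± 0.10, -0.45 ± 0.10 and -0.43 ± 0.11, adjusted p = 0.031, 0.0058 and 0.019). Fbxw7, the ubiquitin ligase subunit that targets Myc, rose with anti-CD3 by 0.36 ± 0.083 in KO (adjusted p = 0.0027) and by 0.35 ± 0.083 in WT cells (adjusted p = 0.0044).

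Of 15 genes of the Sin3 corepressor that Mxd proteins and Mnt recruit, 2 rose and 2 fell in KO against WT cells without stimulation (median -0.18), 0 rose and 2 fell with anti-CD3 (median 0.01) and 4 rose and 0 fell with both antibodies (median 0.09). The shares of all genes were 15.3%, 10.5% and 9.84% higher and 10.1%, 4.80% and 6.30% lower, and the Sin3 counts without stimulation lay near them. With GC correction 0 rose and 1 fell without stimulation, 1 rose and 3 fell with anti-CD3, and 3 rose and 1 fell with both antibodies. Leaving out 1 library gave 1 to 8 called Sin3 genes without stimulation (1 without KO replicate 2 or WT replicate 1 or 2, 8 without KO both-antibody replicate 1 or 3), 1 to 5 with anti-CD3 (1 without KO replicate 3 or WT replicate 2 or 3, 5 without KO both-antibody replicate 3) and 0 to 11 with both antibodies (0 without KO replicate 3 or either WT library, 11 without KO replicate 1). Arid4a, a Sin3-associated subunit, was lower in KO cells without stimulation (-0.23 ± 0.075, adjusted p = 0.035) and with anti-CD3 (-0.44 ± 0.075, adjusted p = 0.00095). Sap30, another Sin3-associated subunit, rose in KO cells with anti-CD3 by 1.44 ± 0.21 (adjusted p = 4.9e-05) and with both antibodies by 1.54 ± 0.21 (adjusted p = 2.5e-05). In WT cells it rose with anti-CD3 by 0.60 ± 0.21 (adjusted p = 0.046), and with both antibodies the value was 0.46 ± 0.24 (adjusted p = 0.15). Of 9 genes of PRC1.6, the complex that contains Mga, 2 rose and 3 fell in KO against WT cells without stimulation, 2 rose and 0 fell with anti-CD3, and 4 rose and 0 fell with both antibodies. With GC correction 0 rose and 1 fell without stimulation, 1 rose with anti-CD3 and 3 rose with both antibodies. Leaving out 1 library gave 0 to 5 called PRC1.6 genes without stimulation (0 without KO replicate 2, 1 without WT replicate 1), 1 to 2 with anti-CD3 and 0 to 8 with both antibodies (0 without WT replicate 3, 1 without WT replicate 2, 2 without KO replicate 3, 8 without KO replicate 1). Tfdp1, the dimerisation partner of E2F proteins, was higher in KO cells with anti-CD3 (0.99 ± 0.13, adjusted p = 0.00015) and with both antibodies (1.14 ± 0.15, adjusted p = 0.0012). With both antibodies the response differed between genotypes for all 9 PRC1.6 genes, 7 with the higher (18.3% of all genes) and 2 with the lower value (19.2%) in KO cells, and for 5, all higher, with GC correction. Of all genes, 37.5% were called in this test.

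Among the paralogs, Mycn and Mycl were read at 0 to 0.226 and 0 to 0.0562 CPM over all libraries, and Mlxipl, which encodes ChREBP, at 0 to 0.129 CPM, so none of them passed the filter on low counts. Mlxip, which encodes the Mlx partner MondoA, averaged 63.5, 62.8 and 56.4 CPM in KO cells without stimulation, with anti-CD3 and with both antibodies, and 54.7, 59.3 and 65.9 CPM in WT cells, and no comparison of it passed the threshold. Txnip, the classical target of MondoA with Mlx and a brake on glucose uptake, averaged 901 ± 12.9 CPM in KO, against 1001 ± 45.7 CPM in WT unstimulated cells. Its mean with anti-CD3 was 447 ± 33.6 CPM in KO, against 577 ± 42.9 CPM in WT cells, and with both antibodies 431 ± 43.5 CPM in KO, against 683 ± 13.1 CPM in WT cells. Txnip was lower in KO than in WT cells with anti-CD3 (-0.37 ± 0.089, adjusted p = 0.010) and with both antibodies (-0.66 ± 0.098, adjusted p = 0.0021), and it fell in all 4 stimulation responses. Arrdc4, the other MondoA target listed, moved the other way: it was higher in KO than in WT cells with both antibodies (0.78 ± 0.19, adjusted p = 0.014) and rose with anti-CD3 in KO (0.72 ± 0.16, adjusted p = 0.0021) and WT cells (0.47 ± 0.16, adjusted p = 0.044). Both targets were called with anti-CD3 in WT cells, but only 1 was in 11 of 27 alternatives. In KO against WT cells with anti-CD3, 1 was called, with a range of 0 to 2, and 24 of the 27 kept this count. For KO against WT cells with both antibodies, 0 of all genes were called when only those 2 groups were fitted.

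Over the 17 libraries, which share the group structure and the GC trend, the log2 CPM of Myc was followed most closely among 8972 protein-coding genes by Nudc (Pearson r = 0.986), Timm50 (0.983), Mybbp1a (0.980), Bcl2l1 (0.980) and Adsl (0.976). Nudc is a nuclear distribution chaperone, Timm50 a subunit of the mitochondrial inner membrane import machinery, Bcl2l1 encodes the survival protein Bcl-xL and Adsl an enzyme of purine synthesis. Bcl2l1 averaged 15.6, 41.4 and 28.6 CPM in KO cells without stimulation, with anti-CD3 and with both antibodies, and 7.39, 12.7 and 16.1 CPM in WT cells. It thus had the same order of the 3 states as Myc in each genotype. The opposite pattern was closest in Otulinl (-0.979), Cd96 (-0.972), Zeb1 (-0.972), Cytip (-0.972) and Elf2 (-0.970). Cd96, a surface receptor of T and NK cells, averaged 128, 58.4 and 64.5 CPM in KO, against 249, 136 and 111 CPM in WT cells in the same states. Likeness over so few groups is a description.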

How the data were processed

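Per the labels' protocols, ribosomal RNA was depleted and stranded libraries were read from both ends. The authors deposited whole-number read counts per gene for each library. The submitters' processing notes name STAR 2.5.2, RSEM 1.3.0 and GRCm38. The sources used here do not say whether RSEM estimates were rounded, or which annotation and strand setting applied. A table joining the libraries held the same values and was not used.

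The 9 genes and 7 lists of network genes (82 genes) were chosen with earlier results of these data known, the members by name. A further gene considered for these lists is not reported here. Symbols, positions, exon lengths and GC content came from GENCODE M21 (53650 identifiers matched) and promoters from RefSeq. Genes were kept by filterByExpr, and edgeR 4.0.16 (R 4.3.3) fitted robust quasi-likelihood models to all 17 libraries with 1 coefficient per group (common BCV 0.153). P-values of 12 contrasts were adjusted by Benjamini-Hochberg over 16246 genes. SEs are those of the fitted coefficients, and counting error is largest for Mxd3. Named list genes were at most 4 per direction and comparison by smallest adjusted p among those called, plus genes singled out in a sentence. Genes most like Myc were the 5 highest and 5 lowest correlations among protein-coding genes averaging 2 or more in log2 CPM. No 2 replicates agreed within sampling noise (chi-square per gene 4.03 to 629).

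The alternatives tried were DESeq2 1.42.0, limma 3.58.1 voom with quality weights, scaling by relative log expression, only the groups compared, no filter, at least 1 CPM in 3 libraries, a GC correction (loess, span 0.3), a block for replicate number, leave-one-out fits, and leaving out KO both-antibody replicate 3 with KO unstimulated replicate 2. On simulated counts with 2-fold changes in 200 of 15860 genes, edgeR called 85% of these in the anti-CD3 comparison of KO with WT, and 10 unchanged genes. The changed genes were drawn only from those above a minimum depth, and no GC tilt was simulated. These figures therefore do not describe shallower genes, smaller changes or libraries that differ in GC tilt. Figures were drawn with matplotlib 3.10.9.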

Additional observations from a re-analysis of the deposited data

Results flagged for a closer look

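Results were picked out here where the response to both antibodies differed between KO and WT cells by the test of the difference itself, KO response minus WT response. Mnt differed by -1.56 on the log2 scale, Mxd3 by -1.58 and Mxd4 by -0.87, each with the lower response in KO cells. Mga differed by 0.63, with the higher response in KO cells. The share of all genes called in the same test was 37.5%. With GC correction the values were -0.20 for Mnt, -0.58 for Mxd3, -0.82 for Mxd4 and 0.068 for Mga, and Mxd4 alone of these passed the threshold. In each state the KO and WT libraries did not overlap in GC tilt.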

How the results depend on the processing

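Over 108 gene and comparison results and 27 alternatives, 2915 values were recomputed: 2630 kept direction and side of the threshold, 81 lost and 115 gained a call, 2 reversed a called value and 87 changed sign without a call. The 2 reversals were Mnt in KO against WT unstimulated cells, at -0.11 with GC correction alone and also -0.11 with the replicate block added to it. Of 9 network genes, KO against WT cells gave 4 calls unstimulated (1 with GC correction, with or without the block), 2 with anti-CD3 (5 with limma voom, 6 with only the groups compared, 5 without 2 KO libraries, unstimulated replicate 2 and both-antibody replicate 3, whose GC tilts were the farthest from 0) and 3 with both antibodies (5 with DESeq2, 9 with limma voom, 0 with only the groups compared). The both-antibody response gave 7 in KO cells (4 with only the groups compared) and 5 in WT cells (3 with GC correction, with or without the block). Both antibodies against anti-CD3 gave 0 in KO cells (6 with limma voom) and 0 in WT cells (1 with DESeq2, 4 with limma voom, 4 with only the groups compared, 3 without those 2 libraries). The genotype difference gave 0 for anti-CD3 (1 with limma voom, with GC correction, with the block and GC correction, and without those 2 libraries), 4 for both antibodies (2 with GC correction, with or without the block) and 0 for the anti-CD28 step (3 with DESeq2, 6 with limma voom, 2 with no filter, 3 without those 2 libraries). The replicate number as a block alone moved no count of network genes by over 1.5 times and ended 1 call, Mxd3 with both antibodies in WT cells (adjusted p = 0.054). Whether the numbers pair the libraries was not settled. Of same-number pairs, 15 of 40 correlated above 0.1 (range -0.57 to 0.74, median 0.031). Of different-number pairs, 24 of 80 did (range -0.76 to 0.69, median -0.0073). In all, 9 of 17 libraries correlated best with their own number.

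Leaving out 1 library gave 1 to 4 calls for KO against WT unstimulated (1 without KO unstimulated replicate 2 or WT unstimulated replicate 1), 1 to 4 with anti-CD3 (1 without KO replicate 3 or WT replicate 2) and 0 to 6 with both antibodies (0 without either WT library, 1 without KO replicate 3, 6 without KO replicate 1). It gave 4 to 6 and 3 to 5 for anti-CD3 in KO and WT cells, 4 to 8 and 3 to 5 for both antibodies in KO and WT cells, and 0 to 1 and 0 to 3 for both against anti-CD3. The genotype differences gave 0 to 0 for anti-CD3, 3 to 5 for both antibodies and 0 to 4 for the anti-CD28 step. Leaving out a WT both-antibody library leaves 1, which is then assumed to vary like the other groups. Over all genes, the calls of KO against WT ranged from 348 to 5465 unstimulated (4134 as reported), 853 to 5765 with anti-CD3 (2492) and 0 to 9409 with both antibodies (2621). Both against anti-CD3 ranged from 0 to 5525 in KO and 0 to 6080 in WT cells (0 each), the both-antibody response from 3990 to 10143 in KO (7379) and 2712 to 8463 in WT cells (5538), and the genotype differences from 0 to 839 for anti-CD3 (9), 2535 to 8449 for both antibodies (6089) and 0 to 7705 for the anti-CD28 step (1). Which cause lies behind each change was not tested. Depth was lowest for Mxd3, with 23 to 363 reads per library.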
